A study of Homo sapiens with 64 samples.

Results

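SUDHL6 cells kept for 12 h in DMSO, the solvent vehicle, were compared with SUDHL6 cells that were not treated. The comparison holds the 6 arrays whose titles name these conditions (3 vehicle and 3 not treated, exp1 to exp3 in each) of the 64 arrays in all, and every gene with a probe detected on 3 or more of the 42 SUDHL6 and SUDHL2 arrays was tested. SUDHL6 is an established human diffuse large B-cell lymphoma line of germinal centre type, grown in vitro. The study also profiled the same line after 1 h and 2 h of DMSO, the SUDHL2 line under the same conditions, OTX015-treated arrays of both lines (OTX015 is an inhibitor of the BET bromodomain proteins) and 22 untreated lymphoma lines. Total RNA was amplified into biotin-labelled cRNA and hybridised to Illumina bead arrays. Neither group received OTX015. The labels give neither the DMSO concentration nor the hour at which the untreated cells were harvested, so DMSO, hours in culture and handling cannot be told apart. They also do not say that exp1 to exp3 were separate cultures, and p-values therefore measure only a spread between arrays. That spread, like each SE, was estimated over all 42 SUDHL6 and SUDHL2 arrays, OTX015 arrays included, and not from the 6 arrays alone.

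Low oxygen stabilises the hypoxia-inducible factors, which bind short core sequences in DNA and raise genes for glucose uptake, glycolysis, blood vessel growth and mitochondrial turnover. Ribosome biogenesis, the making of rRNA and its assembly with proteins in the nucleolus, is a costly programme of growing cells, and MYC is a known driver of it through the E-box CACGTG. DMSO is used as a carrier for small molecules and is usually given to control cultures in the volume that carries the drug.

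Among the 15 largest falls after 12 h in DMSO were 6 genes of the first programme, and most members of the second rose, so the starts of 6 genes are shown, 4 that fell and 2 that rose. Each is 300 bases from RefSeq on GRCh38.p14, from 250 before to 50 after the start of the gene, read 5′ to 3′ on the strand of the gene. In the first 4, capitals mark each ACGTG or GCGTG on either strand, the core letters of the hypoxia response element. These are PFKFB4 (chr3:48556754-48557053, minus strand, 1 match), ANKRD37 (chr4:185396591-185396890, plus strand, 3 matches), ALDOC (chr17:28576846-28577145, minus strand, 5 matches) and BNIP3 (chr10:131981874-131982173, minus strand, 6 matches).
PFKFB4: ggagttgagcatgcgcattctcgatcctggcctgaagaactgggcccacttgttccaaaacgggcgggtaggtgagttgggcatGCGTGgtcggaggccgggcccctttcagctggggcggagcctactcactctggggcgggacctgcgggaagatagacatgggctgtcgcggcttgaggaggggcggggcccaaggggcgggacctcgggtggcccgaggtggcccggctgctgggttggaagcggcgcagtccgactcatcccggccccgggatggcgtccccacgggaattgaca
ANKRD37: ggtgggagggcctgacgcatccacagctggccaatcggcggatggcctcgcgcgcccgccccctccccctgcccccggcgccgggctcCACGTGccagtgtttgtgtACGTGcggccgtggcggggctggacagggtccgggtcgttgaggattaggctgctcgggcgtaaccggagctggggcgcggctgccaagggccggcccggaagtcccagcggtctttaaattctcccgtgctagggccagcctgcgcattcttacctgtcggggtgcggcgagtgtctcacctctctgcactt
ALDOC: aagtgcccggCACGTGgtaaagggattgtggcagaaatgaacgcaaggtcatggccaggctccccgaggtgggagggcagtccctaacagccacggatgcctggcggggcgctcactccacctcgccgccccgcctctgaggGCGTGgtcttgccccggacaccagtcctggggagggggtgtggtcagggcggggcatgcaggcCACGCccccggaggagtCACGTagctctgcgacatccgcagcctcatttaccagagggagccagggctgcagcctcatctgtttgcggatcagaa
BNIP3: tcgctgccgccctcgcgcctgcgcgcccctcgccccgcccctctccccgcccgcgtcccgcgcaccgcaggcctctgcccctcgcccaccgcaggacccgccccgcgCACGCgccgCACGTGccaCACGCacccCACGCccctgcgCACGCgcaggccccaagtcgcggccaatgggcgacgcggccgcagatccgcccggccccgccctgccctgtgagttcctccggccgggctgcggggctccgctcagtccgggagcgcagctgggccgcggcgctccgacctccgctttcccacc

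In the other pair, PNO1 (chr2:68157638-68157937, plus strand, 1 match) and PES1 (chr22:30591861-30592160, minus strand, 1 match), capitals mark the E-box CACGTG, whose letters contain ACGTG on both strands. They were picked because they hold it: NOP16 and LYAR, which rose more, have 0 such matches in this window.
PNO1: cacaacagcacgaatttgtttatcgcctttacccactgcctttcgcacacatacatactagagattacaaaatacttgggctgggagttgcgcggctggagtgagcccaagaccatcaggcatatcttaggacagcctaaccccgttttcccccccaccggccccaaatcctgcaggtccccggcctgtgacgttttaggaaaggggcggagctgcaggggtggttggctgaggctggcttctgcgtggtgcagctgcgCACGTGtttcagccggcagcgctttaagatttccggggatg
PES1: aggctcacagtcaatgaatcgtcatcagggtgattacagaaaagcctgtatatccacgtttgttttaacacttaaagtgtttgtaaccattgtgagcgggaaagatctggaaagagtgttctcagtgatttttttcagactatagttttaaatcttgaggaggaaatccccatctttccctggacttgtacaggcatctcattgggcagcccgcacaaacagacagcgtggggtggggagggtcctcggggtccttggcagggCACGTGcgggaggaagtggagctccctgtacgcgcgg

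Such short motifs are common. ACGTG or GCGTG stood in 48.4% of 27305 promoters of this length and in 61.2% of the 10548 that matched a tested gene, against 16 of the 19 matched promoters of detected hypoxia and glycolysis genes and 16 of the 16 matched promoters of ribosome biogenesis genes. CACGTG stood in 7.43% of all promoters and 9.94% of those of tested genes, against 4 of 19 and 8 of 16 for the same lists. A match describes letters only.

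Median raw signal ran from 89.7 to 103 and 34.2% to 41.3% of the 47231 probes were detected per array. Both lowest values were those of DMSO exp1, against at least 97.2 and 37.6% on the other arrays. On the normalized scale, arrays of the same group correlated at 0.984 to 0.993 across genes and arrays of different groups at 0.976 to 0.986. One slide held not treated exp1 and exp2 with DMSO exp1, its only array of the DMSO 12 h group. A second slide held the other 3, so differences within the first slide rest on DMSO exp1. The exp3 arrays of SUDHL6 stood apart together across conditions (their deviations from the group means correlated at 0.226 to 0.438). For the 12 h comparison, the totals are therefore given with and without the exp3 arrays of both groups. So are the hypoxia, ribosome biogenesis, replication, mitosis and small RNA counts. Counts of the other lists were not repeated without exp3. The B-cell markers CD79A, CD79B, MS4A1 and CD22 were detected on all 6 arrays, while the probe for PAX5 was not detected on any. CD3D, CD3E and NKG7 of T and NK cells, CSF1R, MPO and S100A9 of myeloid cells, and EPCAM and PECAM1 of epithelium and endothelium were not detected on any of the 6.

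Of 13393 genes tested, 1166 rose (8.71%) and 1095 fell (8.18%) at an adjusted p below 0.05 in the limma fit, together 16.9%. Most changes were modest: the median size among the 2261 changed genes was 0.55 on the log2 scale, and 135 (1.01%) changed at least 2-fold, of which 26 rose and 109 fell. The median over all tested genes was 0.00. The 3 arrays of one group lay wholly above those of the other for 3920 genes (29.3%), and for 2073 of the changed genes (91.7%). The difference had the same sign on both slides for 2255 of the 2261 and for all 135 of the at least 2-fold changes. Lack of overlap fixes this agreement for the 2073, and the rest were picked on the same 6 arrays. It is therefore no separate check of the slides. Within the slide of 2 untreated arrays and 1 DMSO array 1080 genes rose and 1241 fell, and within the slide of 1 and 2 none rose and 24 fell. Each of these fits took its spread from the 12 arrays of that slide, with 5 and 2 residual degrees of freedom, and assumed that a lone array varies like the others. Without both exp3 arrays, 979 genes rose and 969 fell. Of the 142 named genes that had passed and were put through this setting, 120 still did. With the fit and its spread taken from the 6 arrays alone, 804 genes rose and 813 fell. Since this is RNA from whole cultures, fewer cells of a type and less RNA per cell cannot be told apart.

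Hypoxia and glycolysis genes were lower after 12 h in DMSO as a block. Of 23 detected members of that list, 22 fell (against 8.18% of all genes) and none rose, with a median difference of -1.39 on the log2 scale, or -1.28 with the 2 members that were undetected after DMSO set at their bounds. The vehicle and untreated arrays did not overlap for 22 of the 23 (14.2% of all genes had all DMSO arrays lower). All 23 differences had the same sign on both slides, which for those 22 follows from the lack of overlap. The median level over the list was 10.66, 10.66 and 10.19 on the untreated arrays exp1 to exp3 and 9.0, 8.99 and 8.54 after DMSO (log2 intensity). Without both exp3 arrays 21 of the 23 fell. The list was chosen with results of these data known, so its direction is a description.

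PFKFB4, which makes the allosteric activator of phosphofructokinase, had the largest fall of all named genes. Its log2 intensity was 11.42, 11.20 and 10.98 on the untreated arrays exp1 to exp3 and 8.45, 7.70 and 7.25 after DMSO. The lowest untreated array lay far above the highest DMSO array. The difference was -3.40 ± 0.22 (SE), a 10.6-fold fall (adjusted p = 4.77e-15), and was -2.86 on the first slide and -3.51 on the second. Its paralogue PFKFB3 read 10.66, 10.71 and 10.56 untreated against 9.0, 8.99 and 9.26 after DMSO. It fell by 1.56 on the log2 scale (SE 0.16, adjusted p = 3.4e-09), with no overlap.

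Glucose uptake and the first steps of glycolysis followed. SLC2A3, a high-affinity glucose transporter, read 10.77, 10.66 and 9.99 untreated and 9.29, 9.18 and 8.46 after DMSO, where exp3 was the low array of both groups. It fell by 1.5 (SE 0.31, adjusted p = 0.00061). SLC2A1, the basal glucose transporter, read 10.24, 10.35 and 10.07 against 9.13, 9.28 and 9.23 and fell by 1.01 (SE 0.19, adjusted p = 0.000178). HK2, the hexokinase that traps glucose in the cell, read 9.19, 9.07 and 9.07 against 7.82, 7.79 and 8.24 and fell by 1.16 (SE 0.19, adjusted p = 2.42e-05). Groups were apart for all 3 genes.

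The enzymes further down the pathway differed from each other, isoforms included. ALDOC, an aldolase isoform, read 12.08, 12.18 and 11.99 untreated and 10.37, 10.01 and 9.74 after DMSO, with the groups far apart. It fell 4.12-fold (log2 -2.04 ± 0.13, adjusted p = 1.59e-15), while the muscle-type isoform ALDOA fell by 0.70. ENO2 read 7.02, 6.93 and 6.88 against 5.15, 5.64 and 5.86 and fell by 1.39 (SE 0.19, adjusted p = 1.91e-06). Its isoform ENO1 was the one member that did not pass, at 13.46, 13.26 and 13.47 against 13.23, 13.20 and 13.26 (log2 -0.16, adjusted p = 0.193). PFKP (-0.93), GPI (-0.87), PGK1 (-0.84), TPI1 (-0.74) and PDK1, which closes the entry of pyruvate into mitochondria (-0.63), also fell, and LDHA, the lactate-forming enzyme, passed narrowly (-0.24 ± 0.09, adjusted p = 0.0453).

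**Figure D1:**
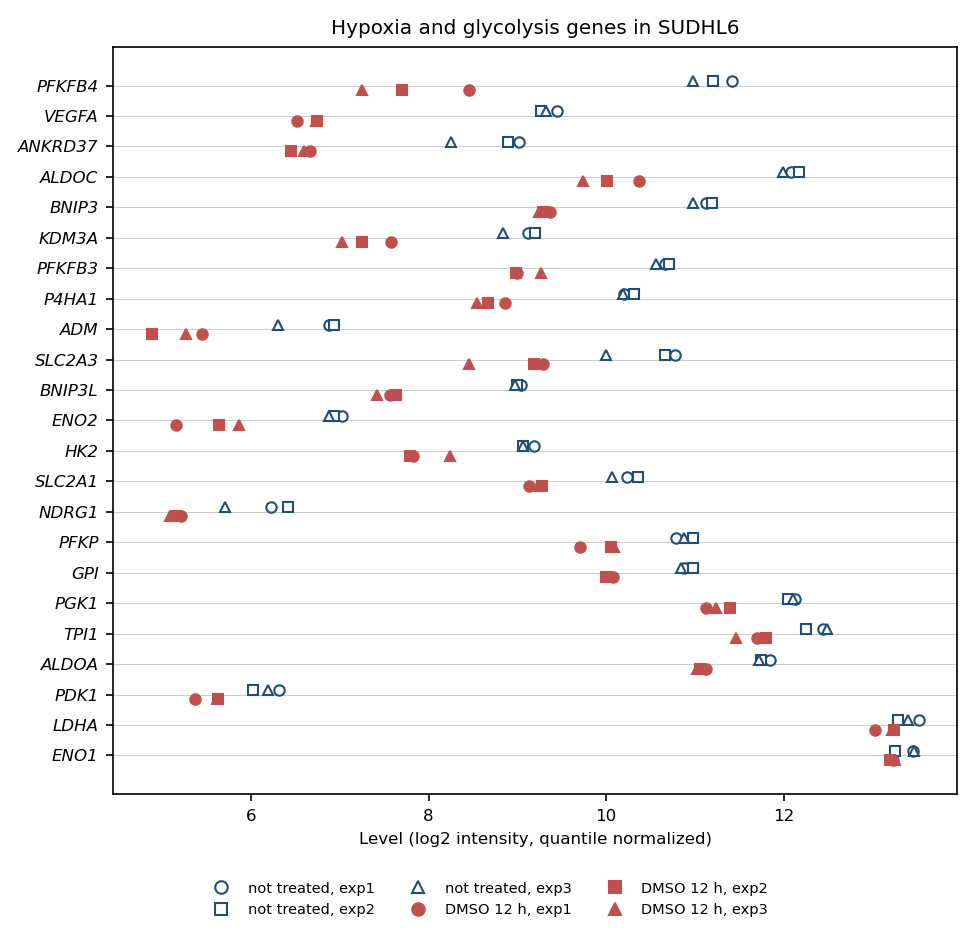
Log2 intensity (horizontal axis, quantile normalized) of each detected hypoxia and glycolysis gene on the 6 SUDHL6 arrays, with open blue symbols for not treated and filled red symbols for DMSO 12 h, and circle, square and triangle for exp1, exp2 and exp3. The DMSO arrays lie to the left of the untreated ones for 22 of 23 genes, from -3.40 for PFKFB4 to -0.24 for LDHA, while those of ENO1 overlap.

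Outside metabolism, VEGFA, the main growth factor of blood vessels, read 9.45, 9.27 and 9.32 untreated and 6.52, 6.74 and 6.73 after DMSO. Both groups were tight and lay well apart. VEGFA fell 6.41-fold (log2 -2.68 ± 0.18, adjusted p = 1.32e-14). ANKRD37, a small ankyrin-repeat protein and a known hypoxia target, read 9.02, 8.89 and 8.25 against 6.66, 6.45 and 6.60. It fell 4.45-fold (adjusted p = 2.44e-09), and only on the untreated side did exp3 lie clearly lower.

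BNIP3 and BNIP3L, related outer-membrane proteins that mark mitochondria for removal, fell together. BNIP3 read 11.12, 11.19 and 10.98 untreated and 9.37, 9.28 and 9.24 after DMSO (3.48-fold lower, log2 -1.80 ± 0.14, adjusted p = 1.04e-12). BNIP3L read 9.04, 9.0 and 8.97 against 7.57, 7.64 and 7.41 (log2 -1.47 ± 0.13, adjusted p = 9.09e-11). Neither gene's groups overlapped, and exp3 was the lowest array in each group of both. KDM3A, a histone demethylase, and P4HA1, a collagen prolyl hydroxylase, fell by 1.77 and 1.54. ADM, the vasodilator peptide adrenomedullin, was detected on all untreated arrays (6.88, 6.94 and 6.30) and on none of the DMSO arrays (5.44, 4.88 and 5.27). It was at least 2.42-fold lower (adjusted p = 1.07e-06), and NDRG1, likewise undetected after DMSO, was at least 1.61-fold lower.

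Several genes outside the list fell as far. LRRC32, the surface anchor of latent TGF-beta, read 10.40, 10.38 and 10.01 untreated and 7.02, 7.01 and 7.16 after DMSO. The 3 DMSO arrays lay close together and far below the untreated ones. LRRC32 fell 9.17-fold (log2 -3.20 ± 0.24, adjusted p = 8.46e-13). GPER1, a membrane oestrogen receptor, read 9.80, 10.01 and 8.34 against 6.71, 6.52 and 6.28 and fell 7.37-fold (adjusted p = 5.83e-06). Of its other 2 probes 1 differed by -2.81 and 1 by -0.21, so the size for GPER1 depends on the probe.

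UPK1A, a uroplakin, read 7.84, 7.63 and 7.47 untreated and 5.0, 5.46 and 5.86 after DMSO, without overlap. It fell 4.62-fold (log2 -2.21 ± 0.15, adjusted p = 1.32e-14). OLMALINC, a long non-coding RNA, fell by 1.95 (SE 0.21) and PLCXD1 differed by -1.90 (SE 0.28, adjusted p = 4.73e-06). ATP4A, the gastric proton pump subunit, fell by 1.97 (SE 0.36), with both exp3 arrays more than 1 log2 unit below the others of their group. CFAP96 was detected on the untreated arrays only and was at least 2.24-fold lower (adjusted p = 2.08e-10). ZNF395 (-1.66 ± 0.18) and DDIT4 (-1.69 ± 0.18), an inhibitor of mTORC1 that hypoxia and amino acid stress both raise, completed the 15 largest falls together with the hypoxia genes named above.

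Ribosome biogenesis genes moved the other way. Of 22 detected members, 17 rose (8.71% of all genes did) and none fell, with a median of 0.68, or 0.62 with UTP20 set at its bound. DMSO arrays lay wholly above the untreated ones for 18 of the 22 (15.1% of all genes). Median levels over the list were 8.54, 8.64 and 8.83 untreated and 9.38, 9.62 and 9.72 after DMSO. Without both exp3 arrays 13 of the 22 rose. These differences were smaller than those of the hypoxia genes, and only NOP16 and RRP12 passed 2-fold.

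NOP16, a nucleolar factor of the large subunit, read 8.55, 8.65 and 8.95 untreated and 10.14, 9.84 and 9.89 after DMSO. Every DMSO array exceeded every untreated one. NOP16 rose 2.36-fold (log2 1.24 ± 0.12, adjusted p = 7.14e-10). RRP12, an export factor of both subunits, read 7.79, 7.78 and 8.04 against 8.68, 9.02 and 9.06 (log2 1.05 ± 0.14, adjusted p = 6.91e-07). LYAR, a nucleolar regulator of rRNA processing, read 9.74, 9.56 and 9.66 against 10.48, 10.57 and 10.88 (log2 0.99 ± 0.15, adjusted p = 6.63e-06). In none of these genes did the groups overlap.

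PNO1, which works in small subunit maturation, read 7.53, 7.44 and 7.96 untreated and 8.59, 8.44 and 8.77 after DMSO (log2 0.96 ± 0.13, adjusted p = 1.21e-06). PES1, of the PeBoW complex of large subunit assembly, read 7.52, 7.50 and 7.94 against 8.32, 8.64 and 8.59 (log2 0.87 ± 0.14, adjusted p = 2.6e-05), and its complex partner BOP1 rose by 0.71 (SE 0.11). For PNO1 and PES1 exp3 was the highest untreated array but still lay below every DMSO array. UTP20, undetected on the untreated arrays, was at least 1.44-fold higher. The abundant nucleolar proteins did not follow: NCL (0.19), FBL (-0.04), NOP56 (0.17), NOP58 (0.29) and the RNA polymerase I subunit POLR1B (0.27) did not pass. Cytosolic ribosomal proteins, the products that biogenesis assembles, had a median of -0.01. Of 27, 1 fell (RPL22, -0.71) and none rose, against 8.18% and 8.71% of all genes.

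**Figure D2:**
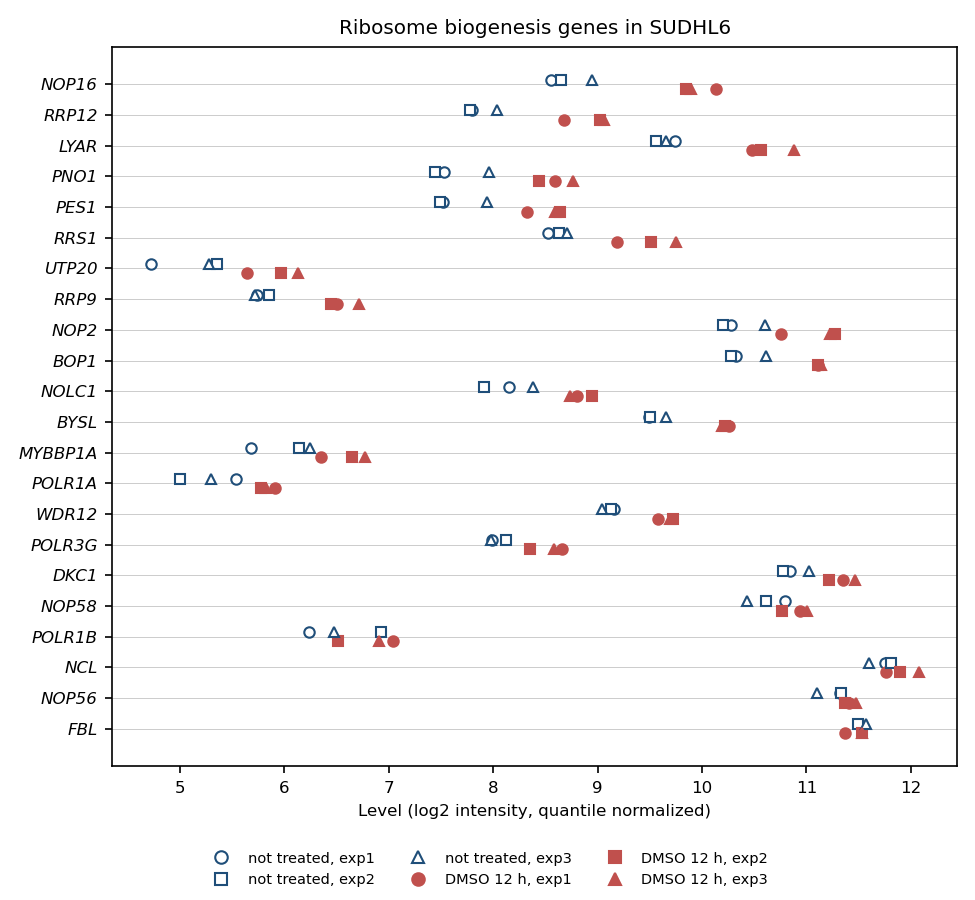
Log2 intensity (horizontal axis, quantile normalized) of each detected ribosome biogenesis gene on the 6 SUDHL6 arrays, with symbols for group and experiment as in the plot of hypoxia genes. DMSO arrays lie to the right of the untreated ones for 18 of 22 genes, with NOP16 (1.24) at the top and overlap for NOP58, POLR1B, NCL and FBL near the bottom.

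Other growth genes were among the largest rises. RPP40, a subunit of RNase P and RNase MRP, read 9.22, 9.36 and 9.77 untreated and 10.67, 10.87 and 10.81 after DMSO (log2 1.34 ± 0.15, adjusted p = 4.14e-08). CCDC86, a nucleolar protein, rose by 1.16 (SE 0.15), and POLR2L, a small subunit shared by RNA polymerases, by 1.09. SRM, spermidine synthase, read 8.82, 8.85 and 9.14 against 9.94, 10.02 and 10.01 and rose 2.08-fold (adjusted p = 0.000206). In its list of polyamine, nucleotide and one-carbon enzymes, 7 of 17 rose and 4 fell, against 8.71% and 8.18% of all genes. AMD1 (0.53, not past the threshold without both exp3 arrays), CTPS1 (0.51) and ODC1 (0.43) rose, while TYMS (-0.65), SMS (-0.63), SHMT2 (-0.53) and SAT1 (-0.48) fell. MYC itself did not pass, at 10.56, 10.61 and 10.42 against 10.46, 11.19 and 11.42 (log2 0.49, adjusted p = 0.128). DMSO exp1 was at the untreated level and the other 2 above it, so the difference was -0.12 on the first slide and 0.88 on the second. The antagonists of MYC in the MAX network, MXI1 (-1.05 ± 0.22) and MXD3 (-0.98 ± 0.19), fell.

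Among genes whose groups did not overlap, small RNAs aside, the largest rise was that of MT1X, a metallothionein that binds zinc and copper, at 7.28, 7.20 and 7.29 untreated and 8.53, 9.13 and 8.20 after DMSO (log2 1.36 ± 0.27, adjusted p = 0.000411). Metallothionein genes are near copies of each other, so the probe may also read relatives. Of 7 detected members of that list 2 rose (8.71% of all genes did), the other being the zinc exporter SLC30A1 (0.54). SLC30A1 passed in 9 of 22 alternative settings and not without both exp3 arrays. UFSP1, detected on 2 untreated arrays and on all DMSO arrays, rose by 1.28 (SE 0.20). BEGAIN rose by 1.09, but 8.52 on DMSO exp1 stood well above 7.33 and 7.40 on the other 2. ECE2 (1.13), PLD6 (1.12), MPV17L2 (1.10), PIGW (1.07), TRMT61A (1.05) and ZNF583 (1.04) were the other members of the 15 largest rises.

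Chaperones rose in part. In the heat shock list 7 of 13 rose (8.71% of all genes did) and none fell (median 0.38). HSPH1, a nucleotide exchange factor of HSP70, read 10.32, 10.44 and 10.45 untreated and 11.21, 11.26 and 11.47 after DMSO (log2 0.91 ± 0.12, adjusted p = 3.46e-07), and the constitutive HSP70 HSPA8 read 11.89, 11.71 and 11.95 against 12.70, 12.53 and 12.73 (log2 0.81, adjusted p = 8.62e-06). Both were apart by more than the spread within groups. CHORDC1 (0.92), HSPE1 (0.75), DNAJA1 (0.73), HSP90AA1 (0.52) and HSP90AB1 (0.38) also rose, whereas HSPA1B, one of a pair of near-identical inducible genes, did not pass (0.35, adjusted p = 0.212).

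Among 14 endoplasmic reticulum chaperones and folding factors, 8 rose and 1 fell (median 0.48), against 8.71% and 8.18% of all genes. SDF2L1 read 8.57, 8.73 and 9.08 untreated and 9.45, 9.57 and 9.93 after DMSO (log2 0.86 ± 0.14, adjusted p = 3.42e-05). HSPA5, the main chaperone of that compartment, read 6.65, 6.65 and 6.81 against 7.26, 7.22 and 7.64 (log2 0.67, adjusted p = 0.000298). DNAJC3 (0.73) and HYOU1 (0.71) rose too. EDEM1, which hands misfolded glycoproteins to degradation, was the member that fell, from 9.83, 9.89 and 9.74 to 8.94, 9.30 and 9.29 (log2 -0.64, adjusted p = 0.000615).

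Amino acid stress genes split evenly, with 5 of 23 rising and 5 falling (median -0.01), against 8.71% and 8.18% of all genes. SLC7A5, the large neutral amino acid carrier, read 9.14, 9.16 and 9.71 untreated and 9.92, 10.21 and 10.46 after DMSO (log2 0.86 ± 0.18, adjusted p = 0.000544), and the tRNA synthetases WARS1 (0.65) and MARS1 (0.65) rose with it. ATF5 read 11.05, 11 and 10.77 against 10.11, 9.95 and 9.63 (log2 -1.04 ± 0.12, adjusted p = 4.88e-08), and TRIB3 (-0.62) fell as DDIT4 did. No gene of the fatty acid and cholesterol lists rose. Those that fell were 4 of 10 fatty acid genes, led by ACSS2 (-1.06 ± 0.16) and the desaturases FADS1 (-0.80) and SCD (-0.61), and 4 of 17 cholesterol genes, among them HMGCS1, at 11.49, 11.53 and 11.51 against 11.23, 10.87 and 10.71 (log2 -0.57, adjusted p = 0.000917). Medians were -0.19 and -0.20, and 8.18% of all genes fell. Of 5 sterol efflux genes 1 fell, MYLIP, which targets the LDL receptor for degradation (-1.28). In the respiratory chain 4 of 22 subunits rose (8.71% of all genes did) and none fell, with a median of 0.13.

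Cell division genes were lower, by less than 2-fold each. Of 29 DNA replication and E2F genes 14 fell and none rose (median -0.40), and of 30 mitosis genes 16 fell and none rose (median -0.44). Over all genes 8.18% fell. DTL, which directs the destruction of replication licensing factors, read 8.43, 8.50 and 8.69 untreated and 7.71, 7.40 and 7.83 after DMSO (log2 -0.89 ± 0.19, adjusted p = 0.000592). MCM2 of the replicative helicase read 9.51, 9.79 and 9.77 against 8.81, 8.99 and 9.24 (log2 -0.68, adjusted p = 0.000206). NUSAP1, a spindle protein, read 11.22, 11.19 and 11.36 against 10.20, 10.26 and 10.90 (log2 -0.81 ± 0.13, adjusted p = 1.67e-05). DMSO exp3 was the highest DMSO array for these 3 genes, and without both exp3 arrays 11 replication and 24 mitosis genes fell. Leaving out 1 array at a time moved the replication count between 6 and 18 and the mitosis count between 5 and 25. The lowest were without DMSO exp2 for both lists and, for replication, also without not treated exp3. Without DMSO exp1 they were 7 and 6, without not treated exp3 9 mitosis genes fell, and without DMSO exp3 25 did. TOP2A (-0.73), LIG1 (-0.78), E2F8 (-0.79), AURKB (-0.80) and PRC1 (-0.78) were other members that fell, while cyclin B1, CCNB1, did not pass (-0.04, adjusted p = 0.935). The G1 list had 6 of 12 lower (8.18% of all genes were) and none higher. Its leading member was the CDK inhibitor CDKN1B (p27), at 8.64, 8.53 and 8.38 untreated and 7.43, 7.55 and 7.36 after DMSO (log2 -1.08 ± 0.15, adjusted p = 2.79e-06), so an inhibitor of division fell in the same arrays as division genes.

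B-cell identity genes changed in part. Among 13 germinal centre genes 5 fell and 1 rose (median -0.35), against 8.18% and 8.71% of all genes. GCSAM, a membrane adaptor of germinal centre B cells, read 8.99, 9.08 and 8.73 untreated and 7.99, 7.91 and 7.83 after DMSO (log2 -1.02 ± 0.15, adjusted p = 2.97e-06). BACH2 (-0.90 ± 0.14), a repressor of plasma cell fate, and MME (-0.82 ± 0.17), which encodes CD10, also fell, and SERPINA9 rose (0.81, adjusted p = 0.00576) although its groups overlapped. BCL6, the master repressor of the germinal centre, did not pass, at 11.11, 11.22 and 11.15 against 10.50, 10.50 and 11.13 (log2 -0.46, adjusted p = 0.0782), where DMSO exp3 stayed at the untreated level. IRF4 did not pass either (-0.27, adjusted p = 0.4). ID2, an inhibitor of the E proteins, read 9.42, 9.34 and 9.37 against 8.27, 8.11 and 7.75 (log2 -1.33 ± 0.20, adjusted p = 6.45e-06), and TCF3, one of those E proteins, fell by 0.69. None of the 4 tested B-cell markers passed, and in the B-cell receptor list 2 of 16 fell, against 8.18% of all genes.

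The summed log2 level of the marker lists was 48.7 to 48.9 untreated and 48.5 to 48.7 after DMSO for B cells, 38.4 to 40.0 and 38.4 to 39.0 for T and NK cells, and 42.8 to 45.0 and 43.3 to 43.8 for stromal and epithelial cells. For the 10 myeloid markers it was 47.6 to 50 untreated and 50.5 to 50.6 after DMSO, without overlap, although 5 of the 10, CSF1R and MPO among them, were undetected on all 6 arrays. None of the tested members of these lists passed (7 myeloid, 2 of T and NK cells, 2 stromal and epithelial), where 16.9% of all genes did. Their part in the changes above was not tested.

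Apoptosis and signalling genes gave single changes rather than shared ones. BIK, a pro-apoptotic BH3-only protein, read 6.77, 7.22 and 7.23 untreated and 8.10, 7.89 and 8.24 after DMSO (log2 1.00 ± 0.22, adjusted p = 0.000778). HRK, of the same class, went down from 8.44, 8.71 and 7.64 to 7.45, 7.06 and 7.12 (log2 -1.05 ± 0.24, adjusted p = 0.00153). CD70, a TNF family ligand of lymphocytes, fell by 0.98 (SE 0.16), the cytokine brake SOCS1 by 0.69 and the kinase PIM1 by 0.59. CXCR4, the chemokine receptor of the germinal centre dark zone, read 9.87, 9.61 and 9.20 against 8.61, 8.80 and 8.53 (log2 -0.91 ± 0.24, adjusted p = 0.00615). Of 10 genes of BET proteins and their transcriptional control none passed, with HEXIM1 at 0.25 (adjusted p = 0.345) and BRD2 at 0.31 (adjusted p = 0.0946). As 16.9% of all genes changed, a count of none among 10 is near that share.

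The early vehicle arrays of the same line show when these levels were reached. The differences at 1 h, 2 h and 12 h all use the same 3 untreated arrays and are therefore given side by side only, while 12 h was tested directly against 1 h and 2 h. At 1 h 178 genes rose (1.33%) and 61 fell (0.455%) against the untreated arrays, together 1.78%, and at 2 h 710 rose (5.3%) and 858 fell (6.41%). Between 1 h and 12 h, 1220 genes rose (9.11%) and 1268 fell (9.47%). From 2 h to 12 h, 1658 rose (12.4%) and 1318 fell (9.84%).

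Most hypoxia genes fell between 2 h and 12 h, though part of the list was already lower at 2 h. Their median difference from the untreated arrays was -0.08 at 1 h and -0.39 at 2 h. Of the 23, 2 passed as lower at 1 h and 10 at 2 h, against 0.455% and 6.41% of all genes. In the direct tests 22 of 23 were lower at 12 h than at 1 h and 16 lower than at 2 h, against 9.47% and 9.84% of all genes. ALDOC differed from untreated by 0.08 at 1 h, -0.11 at 2 h and -2.04 at 12 h, and PFKFB4 by -0.02, -0.67 and -3.40. VEGFA went more gradually, at 8.59, 9.48 and 8.21 at 1 h and 7.90, 8.54 and 8.17 at 2 h, and fell by another 1.54 from 2 h to 12 h (adjusted p = 1.94e-08). LRRC32 fell by 2.12 over the same interval (adjusted p = 1.32e-08).

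A few genes were already low at 1 h or 2 h, and their further difference to 12 h did not pass. DDIT4 read 10.24, 10.34 and 9.84 at 1 h, already 1.53 below untreated, and its 12 h level differed from that at 1 h by -0.15 (adjusted p = 0.636). CDKN1B was 0.86 lower than untreated at 1 h, and its 12 h level differed from that at 1 h by -0.22 (adjusted p = 0.363). SLC2A1 and ANKRD37 differed between 2 h and 12 h by 0.11 (SE 0.19, adjusted p = 0.762) and -0.16 (adjusted p = 0.686). SLC2A1 was 1.11 lower than untreated at 2 h and 1.01 lower at 12 h, whereas HK2 was 0.70 lower at 2 h and 1.16 lower at 12 h.

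Ribosome biogenesis also rose late for most members. The list medians were 0.01 at 1 h and 0.15 at 2 h. Of 22 members, 15 were higher at 12 h than at 1 h and 14 than at 2 h, against 9.11% and 12.4% of all genes. NOP16 rose in steps, by 0.95 from 1 h to 12 h (adjusted p = 2.11e-07) and by 0.63 from 2 h to 12 h (adjusted p = 0.000123). SRM did not pass at 1 h or 2 h (-0.27 and 0.06 from untreated) and rose by 0.99 from 2 h to 12 h. PNO1 was the exception, 0.73 above untreated at 1 h, 1.25 at 2 h and 0.96 at 12 h. HSPA5 likewise stood 0.66 above untreated at 1 h and 1.03 at 2 h, and was lower at 12 h than at 2 h (-0.36, adjusted p = 0.0481).

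CDKN1A and CD69 were high at 1 h and near the untreated level at 12 h. CDKN1A (p21), a CDK inhibitor and p53 target, read 12.02, 12.31 and 11.98 at 1 h, against 9.26, 9.37 and 9.16 untreated and 9.23, 8.98 and 8.45 at 12 h. It fell by 3.22 from 1 h to 12 h (adjusted p = 3.74e-17), and its 12 h and untreated levels overlapped (-0.38, adjusted p = 0.153). A second CDKN1A probe differed from untreated by 0.53 at 12 h, so the direction at 12 h depends on the probe. CD69, an early activation marker of lymphocytes, read 10.19, 10.28 and 8.42 at 1 h and 6.09, 6.23 and 5.18 at 12 h, a difference of -3.80 (adjusted p = 2.62e-08), and did not differ beyond its spread from the 6.63, 6.24 and 5.53 of the untreated arrays.

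Across the p53 target list, 12 of 19 were above untreated at 1 h, 15 at 2 h and 2 at 12 h, and 15 were lower at 12 h than at 1 h. The shares over all genes were 1.33%, 5.3% and 8.71% above untreated, and 9.47% lower at 12 h than at 1 h. AEN, a p53-induced nuclease, kept part of its rise (2.64 at 1 h and 0.79 at 12 h), and DDB2, a DNA damage sensor, was below untreated at 12 h (-0.95 ± 0.13). Among 14 immediate early transcription factors, 7 were above untreated at 1 h and none at 12 h. JUN fell by 2.98 between 1 h and 12 h to a level 0.12 from untreated, whereas FOS ended below it (-0.79, adjusted p = 0.0127). That call of FOS was lost in 8 of 22 settings, among them the authors' values and both exp3 arrays left out. TXNIP, an arrestin that restrains glucose uptake and follows glucose supply, passed through the untreated level: it read 11.67, 11.98 and 11.01 at 1 h, 10.09, 10.25 and 9.92 untreated, and 8.95, 8.84 and 9.02 at 12 h. The last difference was -1.15 ± 0.23 (adjusted p = 0.000357).

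**Figure D3:**
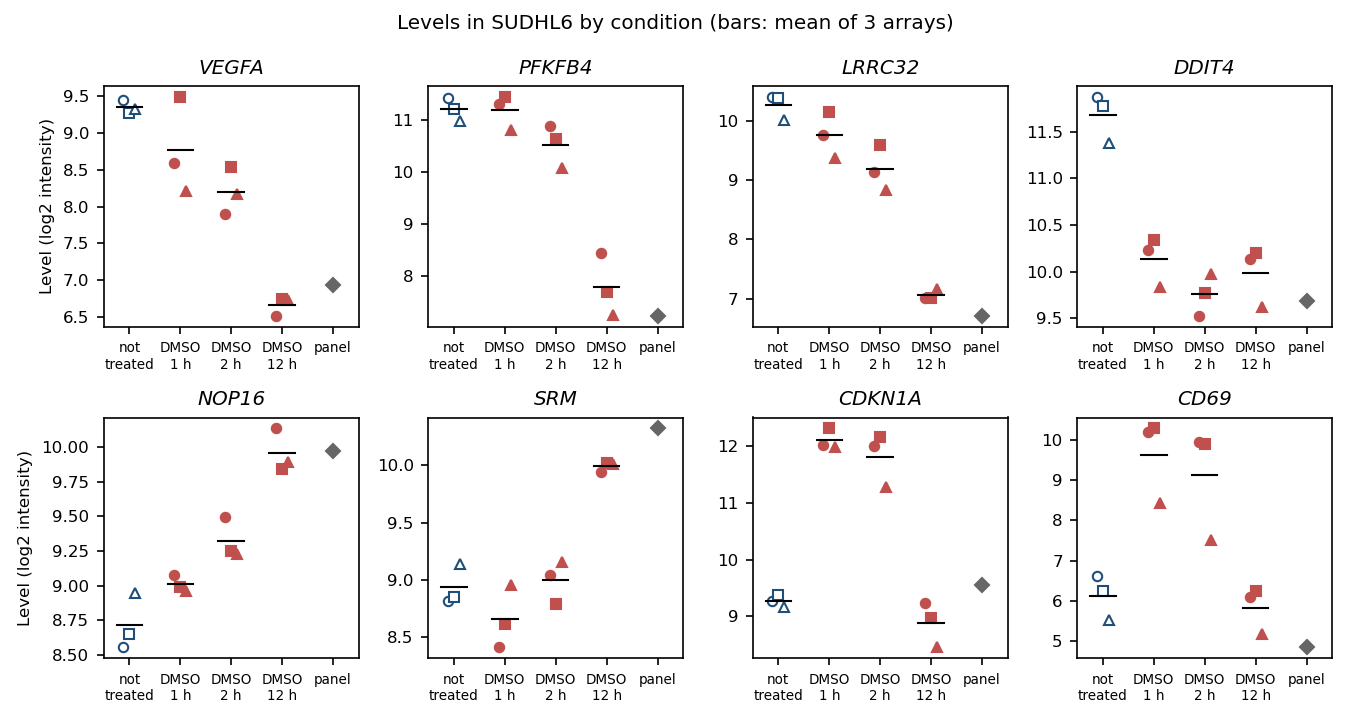
Log2 intensity (vertical axis, each panel with its own range) of 8 genes on SUDHL6 arrays that were not treated or held 1, 2 or 12 h in DMSO, with symbols for exp1 to exp3, a bar for the mean of 3 arrays, and a grey diamond for the single untreated SU-DHL-6 array of the line panel. VEGFA, PFKFB4 and LRRC32 are lowest at 12 h, DDIT4 is already low at 1 h, NOP16 and SRM are highest at 12 h, and CDKN1A and CD69 are high at 1 and 2 h only.

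SUDHL2, a lymphoma line of activated B-cell type, went through the same 12 h comparison on arrays of its own, where 1616 genes rose (12.1%) and 1449 fell (10.8%). The difference between the lines was tested as an interaction, and 360 genes were higher (2.69%) and 446 lower (3.33%) in the SUDHL6 contrast, together 6.02%. In SUDHL2, 8 of the 23 hypoxia genes fell, with a median of -0.24. The fall was deeper in SUDHL6 for 13 of the 23 and shallower for 1.

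ALDOC did not pass in SUDHL2, at 11.82, 12.06 and 11.74 untreated and 11.94, 11.82 and 11.85 after DMSO, and the line difference was -2.04 ± 0.18 (adjusted p = 1.15e-10). VEGFA fell in both lines, at -2.68 in SUDHL6 and -0.78 in SUDHL2 (line difference -1.90, adjusted p = 3.27e-06), and so did PFKFB4, at -3.40 and -2.12 (line difference -1.28, adjusted p = 0.00771). PFKFB3 fell by 1.56 in SUDHL6 and was at 0.30 in SUDHL2, which did not pass there (line difference -1.86, adjusted p = 6.25e-07). BNIP3 differed too (-1.75), but in SUDHL2 it read 5.09 to 5.52 on all 6 arrays, so the line difference rests on SUDHL6. ENO2 was the member with the deeper fall in SUDHL2 (-2.55, line difference 1.16, adjusted p = 0.00707). DDIT4 differed by -2.33 in SUDHL2, with a line difference of 0.64 that did not pass, and ADM by -2.15, for which SUDHL6 gives only a bound.

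Of the ribosome biogenesis genes, 15 of 22 rose in SUDHL2 with a median of 0.60 (12.1% of all genes rose there). The line difference passed for 1 member, LYAR (0.72 ± 0.21, adjusted p = 0.0318), and for 6.02% of all genes. NOP16 rose by 1.24 in SUDHL6 and 1.21 in SUDHL2, a difference of 0.03 ± 0.17. Replication (23 of 29 lower, median -0.61) and mitosis genes (23 of 30 lower, median -0.73) fell in SUDHL2 as well, where 10.8% of all genes fell. Heat shock genes did not follow that pattern, with a median of -0.01 in SUDHL2. Of 13, 5 were higher in the SUDHL6 contrast (2.69% of all genes were), HSPH1 among them (0.90 ± 0.16, adjusted p = 0.000404).

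Some genes moved in opposite directions in the 2 lines. ID2 fell by 1.33 in SUDHL6 and rose by 1.53 in SUDHL2 (line difference -2.86, adjusted p = 2.97e-09), SOCS1 went -0.69 and 1.99 (line difference -2.68), and PIM1 -0.59 and 0.94 (line difference -1.53, adjusted p = 7.2e-05). WDR81 rose by 1.00 in SUDHL6 and fell by 2.02 in SUDHL2. MT1X rose in SUDHL6 and fell in SUDHL2 (-0.78), a line difference of 2.13 (adjusted p = 0.000395). Its SUDHL2 groups overlapped, at 9.37, 9.51 and 9.48 untreated and 8.75, 9.48 and 7.82 after DMSO. MT1X was the exception in the metallothionein list, where 5 of 7 detected members rose in SUDHL2 and 1 fell (median 1.30), against 12.1% and 10.8% of all genes. The line difference was lower in SUDHL6 for 4 of the 7 and higher for 1, against 3.33% and 2.69% of all genes.

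**Figure D4:**
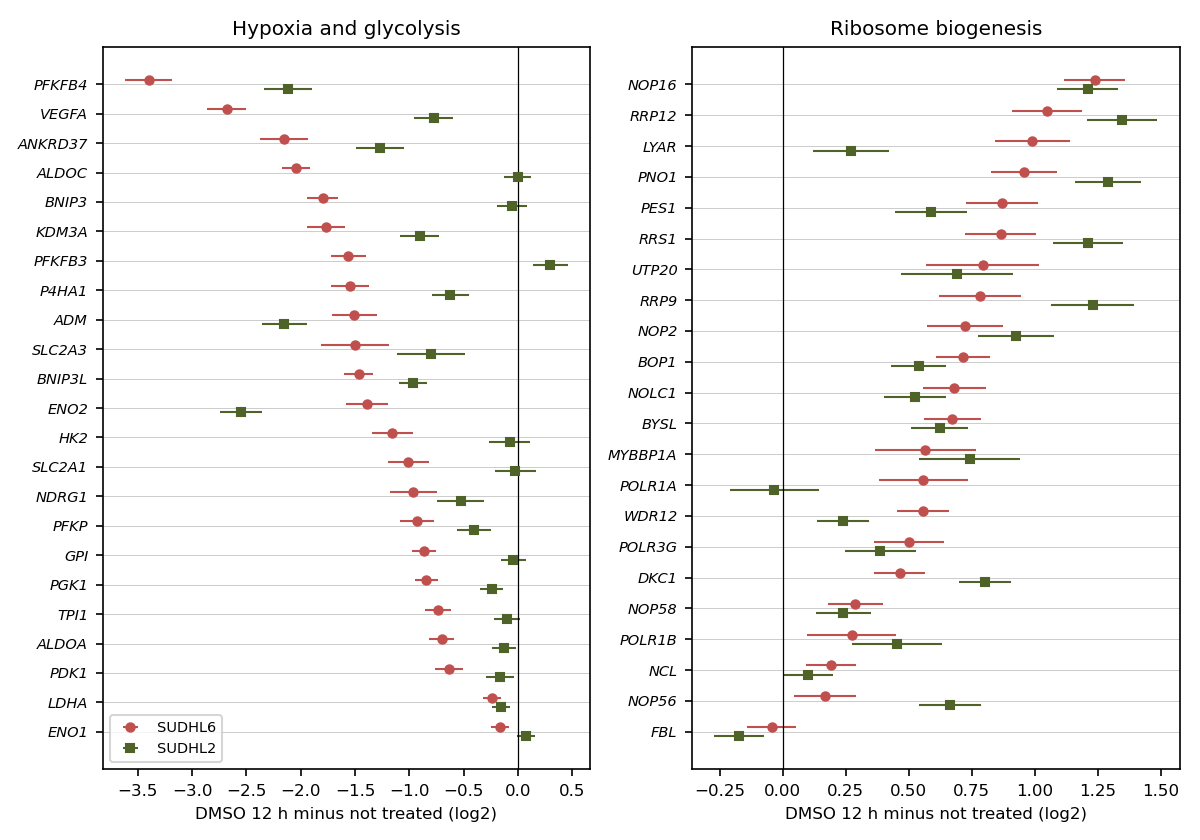
Log2 difference between DMSO 12 h and not treated (horizontal axis, estimate ± SE, 3 arrays per group) for detected hypoxia and glycolysis genes (left) and ribosome biogenesis genes (right), in SUDHL6 (circles) and SUDHL2 (squares). On the left SUDHL6 lies further below 0 for most genes, such as ALDOC at -2.04 with SUDHL2 at 0, while on the right both lines lie together above 0 for genes such as NOP16.

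Of 314 detected genes of small nuclear RNAs, nucleolar RNAs and microRNAs, microRNA host genes included, 57 rose and 2 fell (median 0.15). Over all genes 8.71% rose and 8.18% fell. Without both exp3 arrays 45 of the 314 rose. For 44 of the 57 all 3 DMSO arrays lay above the untreated ones, while 7 were high on DMSO exp1 and exp2 only. Among all changed genes, the groups did not overlap for 91.7%. RN7SK, the RNA that holds P-TEFb inactive, read 9.47, 9.66 and 9.48 untreated and 12.31, 11.93 and 9.37 after DMSO. The first 2 DMSO arrays were more than 2 log2 units higher and exp3 was at the untreated level, so the difference of 1.67 (adjusted p = 0.0089) describes 2 of 3 arrays. RNU4-2 of the spliceosome (10.63, 10.37 and 7.52 against 7.32, 8.05 and 7.60 untreated) and RNU6ATAC of the minor spliceosome (7.84, 7.65 and 5.39 against 5.36, 5.67 and 5.10) had the same form.

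Many nucleolar RNAs were among the 44. SNORA13 read 4.63, 5.10 and 5.25 untreated and 5.90, 6.08 and 6.15 after DMSO. On each untreated array it lay below UTP20, which was undetected there, so its fitted log2 difference of 1.05 is not a measured size. SNORD35B (0.95) and SNORD100 (0.90) rose without overlap too. No bounds are given for small RNA genes, so sizes near background are uncertain. Many of these RNAs belong to families of near copies or lie within host genes, so a probe may read more than the RNA it is named for. Leaving out DMSO exp2 alone lowered the count of rises from 57 to 34. RIMBP3, a coding gene with copies, had the same form (9.33, 8.98 and 6.16 against 6.08, 6.43 and 6.43), and its other probes differed by -0.20 and -0.17.

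**Figure D5:**
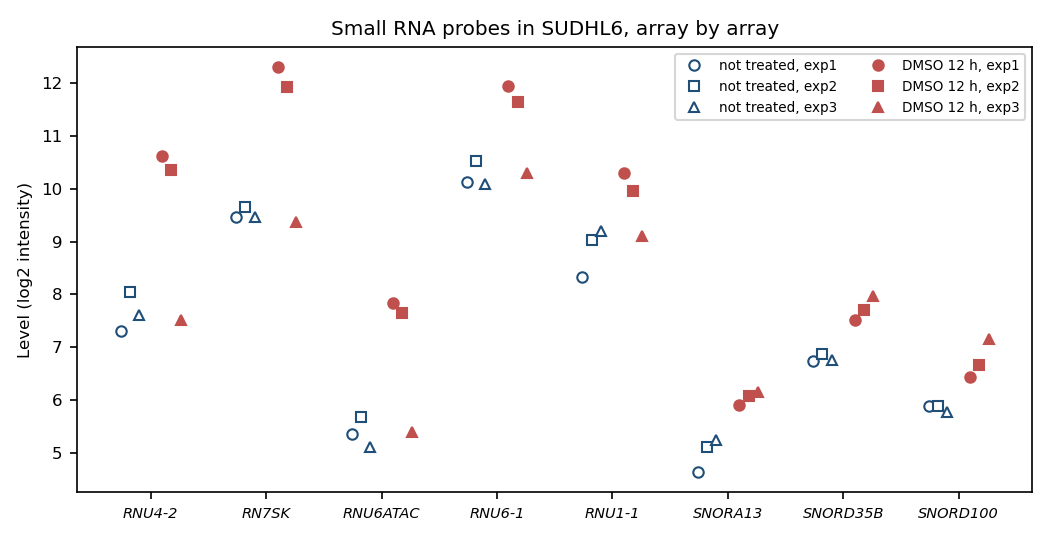
Log2 intensity (vertical axis) of 8 small RNA genes on the 6 SUDHL6 arrays, with open blue symbols for not treated and filled red symbols for DMSO 12 h, and circle, square and triangle for exp1, exp2 and exp3. For RNU4-2, RN7SK, RNU6ATAC, RNU6-1 and RNU1-1 the first 2 DMSO arrays are high and exp3 (triangle) lies with or near the untreated arrays, while SNORA13, SNORD35B and SNORD100 are higher on all 3.

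The line panel holds 1 further untreated array of the same line, labelled SU-DHL-6, which entered no test. For 116 of the 135 genes that changed at least 2-fold (85.9%) this array lay nearer to the DMSO 12 h mean than to the untreated mean, and for 1674 of all 2261 changed genes (74%), against 59.3% of all tested genes. PFKFB4 read 7.24 and VEGFA 6.93 on it, close to the DMSO 12 h arrays and far below the untreated ones, and NOP16 read 9.97. It lay nearer to DMSO for 20 of 23 hypoxia, 21 of 22 ribosome biogenesis and 26 of 30 mitosis genes, but for 2 of 29 replication genes. Across genes the panel array correlated at 0.974 to 0.978 with the untreated and at 0.978 to 0.987 with the DMSO 12 h arrays. The panel array carries no DMSO in its label, and 1 array gives no measure of spread.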

How the data were processed

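Intensity values of 47231 Illumina probes on 64 arrays were read from the deposited tables of raw signals, and the authors' log2 values of the same arrays served for a check. The sources used here do not name the scanner software or the authors' normalization. Per the labels, each array carried biotinylated cRNA from total RNA. The median of the authors' deposited log2 values was 6.644 on the treated lines' arrays and 6.743 on the panel's. These values differed from quantile-normalized log2 signals by a median of 0.0107. The scale is thus log2, and the centring between the 2 sets is unstated.

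Signals of all 64 arrays were corrected by normexp with an offset of 16, quantile normalized and taken to log2 in limma 3.58.1 (R 4.3.3). Background spread was estimated from the lower side of each array's dim probes. Probes above it at p below 0.01 on at least 3 of the 42 SUDHL2 and SUDHL6 arrays were kept (26033). Of all probes 30113 had 1 gene symbol in the platform annotation, 8 several and 17110 none. The brightest probe stood for a gene, which left 13393 genes. limma fitted 1 mean per group over these 42 arrays (14 groups of 3) with an intensity trend, and p-values were adjusted by Benjamini-Hochberg over all genes, 2-sided, with a threshold of 0.05. The fit was tested on simulated data. The number of arrays limits the precision.

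A gene undetected on all arrays of a group was given a bound: the mean of the detected group over the higher of the dim probe's own level and the lowest detected level on each array. Named genes were the 15 largest rises and falls without overlap, up to 4 leading members per list, the 5 largest differences each way against 1 h and between lines, and a set kept whatever their values. Members named beyond this rule were picked after their values were seen. Members and lists were chosen with earlier results of these data known. Promoters came from RefSeq (GRCh38.p14). Alternatives covered background, normalization (including the authors' values), filter, probe rule, arrays fitted, slide and experiment blocks, and each array left out. No column was left unmapped. Figures were drawn with matplotlib 3.10.9.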

Additional observations from a re-analysis of the deposited data

Results flagged for a closer look

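Among the 15 largest rises, the 15 largest falls and the 14 genes named whatever their values, the 12 h difference from the untreated arrays was not the same in SUDHL6 and SUDHL2 for 13, by the interaction test. It was lower in SUDHL6 for LRRC32 (-2.27), GPER1 (-2.05), ALDOC (-2.04), VEGFA (-1.90), UPK1A (-1.86), BNIP3 (-1.75), PIM1 (-1.53), IRF4 (-1.52), PFKFB4 (-1.28), TXNIP (-1.13) and KDM3A (-0.86), and higher for MT1X (2.13) and SRM (1.02), all as log2 differences between the lines' contrasts. IRF4 did not pass in SUDHL6 itself. On the untreated and DMSO 12 h arrays of SUDHL2, UPK1A read 5.26 to 5.83, GPER1 5.14 to 6.15 and BNIP3 5.09 to 5.52. At such low levels a fall of the SUDHL6 size could hardly be measured. For SRM, SUDHL2 read 10.23, 10.31 and 10.26 untreated and 10.64, 10.72 and 9.54 after DMSO, so its line difference leans on DMSO exp3 of SUDHL2. Over all 166 named genes the test passed for 49, of which 34 were lower and 15 higher in SUDHL6.

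Levels at 12 h of DMSO differed from those at 1 h, by the direct test, for 8 of the genes named whatever their values. The 12 h arrays were lower for CD69 (-3.80), CDKN1A (-3.22), TXNIP (-2.62), EGR1 (-2.28), CXCR4 (-1.41), H2BC21 (-1.24), PIM1 (-1.20) and HMGCS1 (-0.86).

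Probes without a gene symbol were outside the gene comparison. Of 7827 such probes kept, 293 (3.74%) passed in the 12 h comparison, 148 higher and 145 lower after DMSO. Groups of 3 arrays were too small for a search for single outlying arrays.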

How the results depend on the processing

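Of the 166 named genes, 157 were put through 22 alternative settings. Those named only for their difference against 1 h or between lines, such as WDR81, RIMBP3 and HLA-DRA, were not. Of the 157, 142 had passed, and none of the 142 changed sign under any setting. ALDOC, ANKRD37, BNIP3, CFAP96, LRRC32, OLMALINC, PFKFB4, PLCXD1, UPK1A, VEGFA and ZNF395 passed under all 22. Leaving out 1 array at a time gave 793 to 1088 rises and 791 to 1095 falls, 21 to 22 hypoxia, 15 to 17 ribosome biogenesis, 6 to 18 replication, 5 to 25 mitosis and 34 to 52 small RNA calls. Against 1 h it gave 930 to 1219 rises and 969 to 1276 falls, against 2 h 1353 to 1673 and 1047 to 1334, and between lines 246 to 340 and 318 to 448. Without both exp3 arrays, a setting chosen after seeing the data, these were 1108 and 1205, 1500 and 1272, and 284 and 400. Within the slide of 1 untreated and 2 DMSO arrays 0 rose and 24 fell, with 7 hypoxia and 0 ribosome biogenesis, replication, mitosis or small RNA calls, and 11 of the 142 genes kept their call. Within the other slide 35 small RNAs rose. With slide as a block 22 replication genes fell. With the SUDHL6 arrays alone, or the 6 arrays alone, 10 mitosis genes fell. Genes that had not passed and changed sign were CDKN1A with the mean of its probes (0.077), CD69 with the slide block (0.062) and within the slide of 2 DMSO arrays (0.18), MYC within the other slide (-0.12), and COL1A1 there (-0.024) and with replicate block and slide block (-0.018). Leaving out 1 array gave -0.60 to 0.027 for CD69, -0.010 to 0.26 for COL1A1 and -0.30 to 0.10 for CCNB1. Their causes were not tested beyond the smaller number of arrays. With the replicate block 1370 genes rose and 1357 fell, and all 142 kept their call. Arrays of the same number deviated together at 0.0212, -0.0188 and 0.228, so the numbers were not taken as pairs. Probes near background carry only bounds, which are not given for small RNA genes.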

Other observations

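Several gene groups showed few or mixed changes after 12 h in DMSO, where 8.71% of all genes rose and 8.18% fell. Without both exp3 arrays TRIAP1, LTB, H1-2 and GAPDH, given here, no longer passed. In the p53 target list TRIAP1 rose (0.50) beside AEN, and in the NF-kB target list CFLAR, an inhibitor of death receptor signalling, fell by 0.71 while TNF (0.68) and LTB (0.43) rose. Interferon-stimulated genes split likewise, with ISG15 higher (0.60) and ISG20 (-0.79) and IFI6 (-0.48) lower among 21 detected members, though IFI6 passed in 10 of 22 settings only. Of 11 genes of HLA class II presentation, CIITA, the master activator, rose (0.65) and HLA-DOB fell (-0.65), and HLA-DRA was at 0.02 and did not pass, where in SUDHL2 it fell by 1.86. None of the 10 PI3K and FOXO genes passed. Among 20 histone genes H2BC12 rose (0.84, with overlapping groups), H1-2 fell (-0.44) and H1-10, undetected after DMSO, was at least 1.30-fold lower.

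Of 8 reference genes often taken as stable, 3 fell (8.18% of all genes did): GUSB (-0.50), HPRT1 (-0.47) and GAPDH (-0.27). GAPDH passed in 11 of 22 alternative settings. SPRY1, a brake on growth factor signalling, fell by 1.15 (SE 0.19) at 12 h and stood 1.32 below untreated at 1 h. CCNE1, the G1/S cyclin, was 0.62 above untreated at 1 h and 0.82 at 2 h, and was 1.00 lower at 12 h than at 2 h (adjusted p = 2.54e-07). PNOC did not pass in SUDHL6 (-0.35) and rose in SUDHL2 (2.39). MT1G rose by 2.20 in SUDHL2, and SPP1 and EFCAB3 differed by -2.28 and -2.61 there, while in SUDHL6 MT1G and SPP1 were not detected on any of the 6 arrays and EFCAB3 on 1.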
